A study of Mus musculus with 3 samples.

Results

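Rbp4, Stra6, Crabp1, Crabp2 and Fabp5, which encode proteins that carry or bind retinoids, were followed in gonads of male mouse embryos that lack Cyp26b1. The genes were taken by name, and every probe with the RefSeq accession of one of them was used. Each of the 5 genes had 1 probe, among 16567 genes named on the array, and all 5 were among the 13457 genes tested. The gonads came from Cyp26b1-/- embryos of the MCH mouse line at E12.5, E13.5 and E14.5. They were placed in RNAlater and frozen, and Cy3-labelled cRNA made from 0.20 µg RNA was hybridised to 1-colour Agilent arrays. Each stage had 2 arrays, which the series text calls biological duplicates, and whether an array held the gonads of several embryos is not stated. All 6 arrays carry the deletion, and gonads of another genotype were not analysed here, so every comparison below is between stages of knockout gonads.

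Retinol is insoluble in water and travels in blood bound to Rbp4, which the liver and other tissues secrete. Stra6 is a membrane receptor that takes retinol from Rbp4 into the cell, where retinol is oxidised to retinoic acid. Crabp1 and Crabp2 bind retinoic acid in the cytoplasm, and Crabp2 is known to hand it to the retinoic acid receptors. Fabp5 binds fatty acids and also retinoic acid, and is known to deliver ligands to the nuclear receptor PPAR delta. Cyp26b1 encodes the cytochrome P450 that clears retinoic acid from the fetal testis, where retinoic acid otherwise drives germ cells towards meiosis.

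Values are log2 signals relative to the 75th percentile of their own array, so a level of 0 is that percentile, and a level of a probe is set only against the same probe on other arrays. Well above background were 65.3% to 70.1% of probes, and 0 spots were saturated. The E12.5 pair was hybridised on its own slide, separate from that of the 4 other arrays, so in any comparison with E12.5 stage and slide cannot be told apart, and slide is shared only by E14.5 and E13.5. Cyp26b1 itself stood at 4.92 and 4.69 on the E12.5 arrays, 4.26 and 4.16 on the E13.5 arrays and 4.23 and 3.78 on the E14.5 arrays, and whether its probe lies inside the deleted sequence is not stated.

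By E14.5, 3 of the 5 genes had risen, 1 had fallen and 1 did not pass the test. Rbp4 rose 3.22-fold over E12.5, Stra6 2.39-fold and Crabp1 1.82-fold, while Fabp5 was 1.95-fold lower. Crabp2 differed by 1.19-fold and did not pass. Over the same interval 46.4% of all genes tested were called, 25.6% as higher and 20.9% as lower, at a limma adjusted p under 0.05. A call over this interval is therefore not particular to these genes. The arrays of E14.5 and E12.5 did not overlap for 5 of 5 genes, against 75.5% of all genes. The median change of the 5 genes was 0.86 on the log2 scale, beside 0.03 for all genes tested. In tissue RNA, fewer cells of a type and less RNA per cell cannot be told apart.

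**Figure D1:**
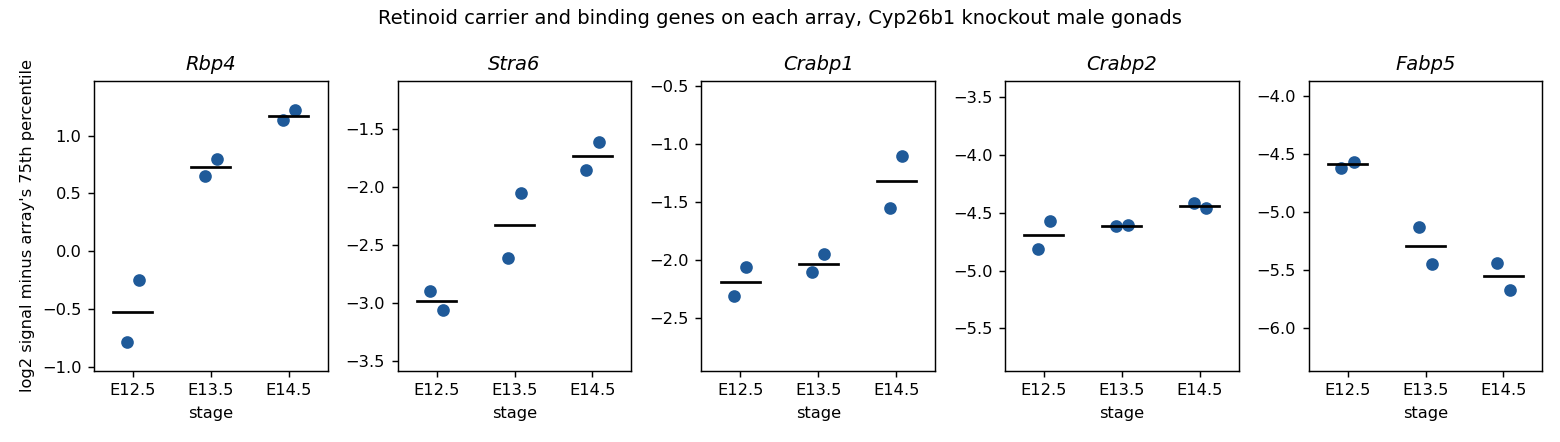
Level of each gene on each of the 6 arrays, as log2 signal minus the 75th percentile of the array (vertical axis, the same span in every panel but another range), by embryonic stage (horizontal axis). Points are arrays and bars are means of 2 arrays. Rbp4 and Stra6 are higher on both arrays of each later stage, both E14.5 points of Crabp1 lie above its other 4, Crabp2 spans -4.81 to -4.42 on all arrays, and Fabp5 is lower on all 4 later arrays.

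Rbp4, the retinol carrier of blood plasma, stood at -0.78 and -0.25 on the E12.5 arrays, 0.65 and 0.80 on the E13.5 arrays and 1.13 and 1.22 on the E14.5 arrays. Each later stage lay above the earlier one with no overlap. Between E13.5 and E12.5 the log2 change was 1.24 ± 0.19 (SE, n = 2 arrays a stage), a 2.36-fold rise with a 95% interval of 0.79 to 1.70 on the log2 scale (limma adjusted p = 0.00741). Between E14.5 and E13.5 the change was 0.45 ± 0.19 and did not pass (adjusted p = 0.275, interval -0.01 to 0.90). The whole interval gave 1.69 ± 0.19 (adjusted p = 0.00169, interval 1.23 to 2.14), and 4.3% of all genes tested rose by more. Its spots were 23.5 to 47.5 times their local background on the 6 arrays.

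Stra6, the receptor that takes up retinol from Rbp4, stood at -2.90 and -3.06 on the E12.5 arrays, -2.61 and -2.05 on the E13.5 arrays and -1.85 and -1.61 on the E14.5 arrays. Its arrays ordered by stage without overlap, and the E13.5 pair was the most spread. E14.5 exceeded E12.5 by 1.25 ± 0.21 on the log2 scale (adjusted p = 0.0055, interval 0.75 to 1.76), with 6.88% of all genes rising more. Neither single step passed the test, with a change of 0.65 ± 0.21 between E13.5 and E12.5 (adjusted p = 0.0583, interval 0.14 to 1.15) and 0.61 ± 0.21 between E14.5 and E13.5 (adjusted p = 0.22, interval 0.10 to 1.11). The first of these passed with the first E13.5 array left out, at 0.93 (adjusted p = 0.0316), and in 5 other of the 17 alternatives tried.

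Crabp1, a cytoplasmic retinoic acid binder, stood at -2.31 and -2.06 on the E12.5 arrays, -2.10 and -1.95 on the E13.5 arrays and -1.55 and -1.10 on the E14.5 arrays. The E13.5 and E12.5 arrays overlapped, and both E14.5 arrays lay above all others. Before scaling, its processed signal was 371.4 and 344.4 on the E12.5 arrays and 341.0 and 530.3 on the E14.5 arrays. The order of E14.5 above E12.5 thus holds only after scaling. The change between E13.5 and E12.5 was 0.16 ± 0.18 (adjusted p = 0.53). Between E14.5 and E13.5 it was 0.70 ± 0.18, or 1.63-fold, with an interval of 0.26 to 1.15 and an unadjusted p of 0.00843, and it did not pass over all genes (adjusted p = 0.147). Over the whole interval the rise was 0.86 ± 0.18 (adjusted p = 0.0123, interval 0.42 to 1.31). With the first E12.5 array left out it was 0.74 and no longer passed (adjusted p = 0.0591).

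The 3 genes that rose are shown with the 250 bases before an annotated transcript start, from RefSeq on GRCm38.p6, 5′ to 3′ in the direction of the gene. The windows were chosen as those with the most motif matches where a gene has several starts. For Stra6, 2 windows tied at 2 matches, and the one not shown held GGGCGG at -72 and -68. Capitals mark matches on either strand to TATAAA, which the TATA-binding protein recognises, to GGGCGG, the site type of Sp factors, and to CCAAT.
Rbp4 (chr19:38124812-38125061, minus strand): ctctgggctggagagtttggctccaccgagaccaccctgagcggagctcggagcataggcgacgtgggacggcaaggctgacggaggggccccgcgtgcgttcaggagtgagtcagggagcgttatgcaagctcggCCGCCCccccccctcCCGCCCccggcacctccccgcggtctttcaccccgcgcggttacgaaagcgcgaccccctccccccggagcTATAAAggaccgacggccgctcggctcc
Stra6 (chr9:58128838-58129087, plus strand): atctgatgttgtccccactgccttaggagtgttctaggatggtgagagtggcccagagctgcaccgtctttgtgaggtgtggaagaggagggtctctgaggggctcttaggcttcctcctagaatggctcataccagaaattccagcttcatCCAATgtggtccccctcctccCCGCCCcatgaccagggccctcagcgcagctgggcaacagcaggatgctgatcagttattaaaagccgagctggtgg
Crabp1 (chr9:54764498-54764747, plus strand): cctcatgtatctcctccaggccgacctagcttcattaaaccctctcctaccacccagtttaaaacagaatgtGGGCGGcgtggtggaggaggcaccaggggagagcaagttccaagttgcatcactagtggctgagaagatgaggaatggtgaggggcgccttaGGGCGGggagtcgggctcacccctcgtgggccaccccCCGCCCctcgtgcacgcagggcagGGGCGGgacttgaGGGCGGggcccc
The Rbp4 window held TATAAA at base -28 from the start and 2 matches to GGGCGG. Crabp1 held 5 matches to GGGCGG, the nearest at -12, and Stra6 held 1 at -77 beside CCAAT at -98. The table held 7 windows of these 3 genes. GGGCGG was in 5 of the 7, against 32.7% of 32851 windows of all genes, and TATAAA in 1 of 7, against 12.4%. The hexamers bound by retinoic acid receptors were also sought on both strands. AGGTCA was in 0 of the 7 windows (14% of all), GGTTCA in 0 (8.85%) and GGGTCA in 1 (11.6%), at -53 of another Rbp4 start. Direct repeats of AGGTCA with 5 or with 2 bases of any kind between them were in 0 of the 7 and in 0.00913% of all windows each. A match describes letters and not a bound site.

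Crabp2, the binder known to pass retinoic acid to its receptors, stood at -4.81 and -4.57 on the E12.5 arrays, -4.62 and -4.61 on the E13.5 arrays and -4.42 and -4.46 on the E14.5 arrays. The first 2 stages overlapped, and both E14.5 arrays were the highest by a small margin. The change between E14.5 and E12.5 was 0.25 ± 0.12 (adjusted p = 0.139), with an interval of -0.05 to 0.55 that holds no change as well as a rise of up to 0.55. The steps were 0.07 ± 0.12 between E13.5 and E12.5 (adjusted p = 0.664) and 0.17 ± 0.12 between E14.5 and E13.5 (adjusted p = 0.486). Its spots were 1.8 to 2.11 times their local background. Crabp2 passed as higher at E14.5 than at E12.5 in 3 of 17 alternatives, the ones that rebuilt the signal from spot and local background, at 0.39 to 0.46 on the log2 scale (adjusted p = 0.0172 to 0.045).

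Fabp5, the binder of fatty acids and retinoic acid, stood at -4.62 and -4.57 on the E12.5 arrays, -5.13 and -5.45 on the E13.5 arrays and -5.44 and -5.67 on the E14.5 arrays. All 4 later arrays lay below both E12.5 arrays, and the E14.5 and E13.5 pairs overlapped. E13.5 was lower than E12.5 by 1.62-fold, a log2 change of -0.69 ± 0.15 (adjusted p = 0.0201, interval -1.06 to -0.33). E14.5 was lower than E12.5 by 1.95-fold, a log2 change of -0.96 ± 0.15 (adjusted p = 0.00471, interval -1.33 to -0.59), with 5.73% of all genes falling more. The change between E14.5 and E13.5 was -0.27 ± 0.15 (adjusted p = 0.394).

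The Fabp5 probe was dim. Its spots were 1.45 to 2.46 times their local background, and its processed signal was 75.1 and 60.4 on the E12.5 arrays, 35.9 and 23.5 on the E13.5 arrays and 23 and 22.3 on the E14.5 arrays. The lowest signal called well above background on an array was between 9.99 and 21.65. With normexp background correction and an offset of 50, added equally to arrays whose 75th percentile signal ran from 996.9 to 1842, the change was 0.03 for E13.5 minus E12.5 (adjusted p = 0.843) and -0.10 for E14.5 minus E12.5 (adjusted p = 0.52). With normexp and no offset the changes were -0.33 (adjusted p = 0.0508) and -0.78 (adjusted p = 0.002). With plain subtraction of the local background they were -0.45 (adjusted p = 0.018) and -0.73 (adjusted p = 0.002). The change of Fabp5 was thus below 0 with both settings that add no offset, and near 0 between E13.5 and E12.5 with the offset. The call between E13.5 and E12.5 was also lost when the first or the second E12.5 array was left out, at -0.72 and -0.67 (adjusted p = 0.0693 and 0.073), or the second E13.5 array, at -0.54 (adjusted p = 0.105). The same probe was read on all 6 arrays. It carries the RefSeq accession of Fabp5 in the array design file read for E12.5. In the one read for the later arrays it carries an accession that is not from RefSeq and was not traced to a gene. A Fabp5 pseudogene is annotated in mouse, and whether the probe also matches it was not tested.

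**Figure D2:**
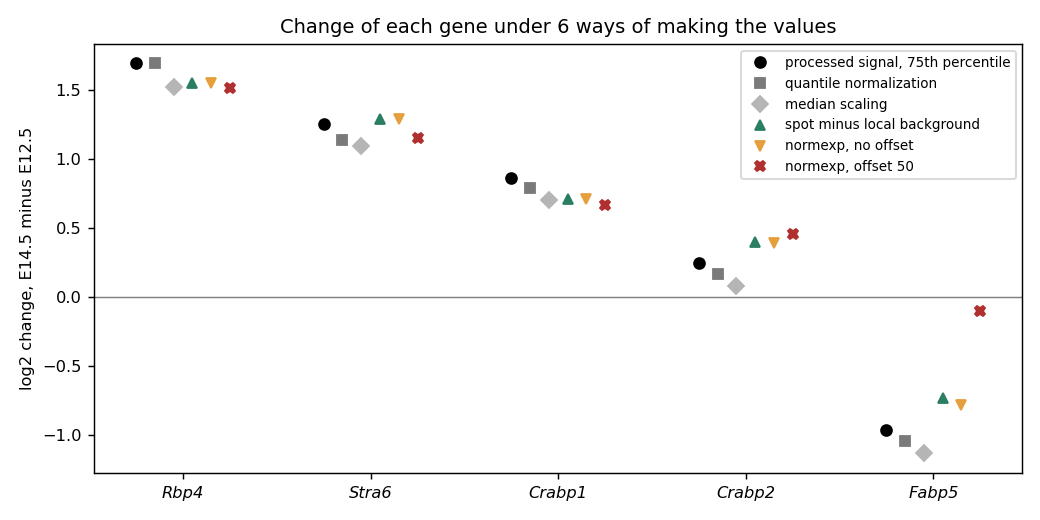
Log2 change of E14.5 minus E12.5 (vertical axis) for each gene (horizontal axis) under 6 ways of making the values. Rbp4, Stra6 and Crabp1 stay above 0 with each of the 6, while Fabp5 is -0.96 with the processed signal and -0.10 with normexp and an offset of 50, and the background settings raise Crabp2 to 0.39 to 0.46.

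By single steps, 1 of the 5 genes rose between E13.5 and E12.5 (Rbp4), 1 fell (Fabp5) and 3 did not pass, where 31.6% of all genes were called, 18.4% higher and 13.2% lower. The arrays of these stages did not overlap for 3 of 5 genes, against 71.9% of all genes, and the median change was 0.16 beside 0.05. Between E14.5 and E13.5, 0 of 5 genes passed in limma, where 0.052% of all genes were called, 0.0446% higher and 0.00743% lower. Crabp1 and Stra6 had an unadjusted p under 0.05 there, as did 2473 of the 13457 genes tested, and 0 of the 5 passed in any of 18 alternatives. The arrays did not overlap for 4 of 5 genes, against 55.6% of all genes, and the median change was 0.45 beside -0.02. The 3 comparisons share arrays and are not independent of each other.

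**Figure D3:**
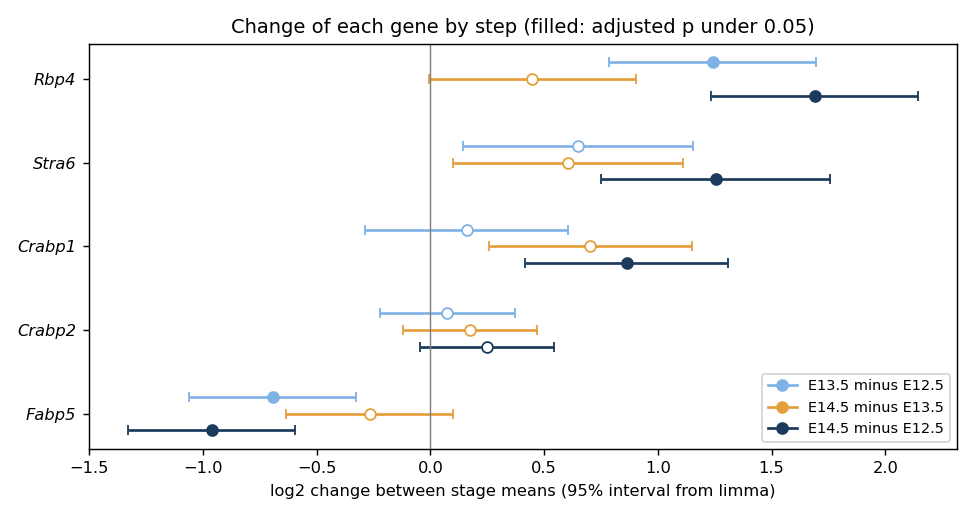
Log2 change of each gene (rows) for E13.5 minus E12.5, E14.5 minus E13.5 and E14.5 minus E12.5 (colours), with 95% intervals from the limma fit on 2 arrays a stage. Filled points have an adjusted p under 0.05. The whole interval is called for Rbp4, Stra6, Crabp1 and Fabp5, and no point is filled for E14.5 minus E13.5.

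The 5 genes differed among themselves in profile. After each gene's own mean over the 6 arrays was subtracted, Crabp1 and Stra6 were the closest pair, with a root-mean-square difference of 0.276 on the log2 scale, before Crabp1 and Crabp2 at 0.308 and Rbp4 and Stra6 at 0.344. Rbp4 and Fabp5 were the farthest apart, at 1.139. Among 12514 other genes above background on every array, those nearest by the same measure were Prdm6 (0.058), Hsd3b6 (0.075) and Slc7a10 (0.083) for Rbp4 and Lrrc46 (0.071), S100pbp (0.08) and Mpp3 (0.081) for Stra6. Crabp1 was nearest to Krt23 (0.037), Nmt2 (0.074) and Slc27a2 (0.077), and Crabp2 to Emc7 (0.018), Tmem59 (0.039) and Ddah1 (0.041). Fabp5 was nearest to Cpsf2 (0.035), Ybx1 (0.036) and Pard3 (0.05). Hsd3b6 has near-identical relatives that its probe may share.

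Other genes of retinoid transport moved in both directions by E14.5. The counts of this and the next lists stand beside 25.6% of all genes tested called higher and 20.9% lower than at E12.5. Of 8 genes listed, 4 were tested, of which 2 were higher and 1 lower than at E12.5. Scarb1, a lipoprotein receptor that also takes up carotenoids and is among the Leydig cell markers used below, stood 2.39 ± 0.19 higher at E14.5 on the log2 scale (adjusted p = 0.000721). Rbp7, a cellular retinol binder, was 0.49 higher by its brighter probe and changed by -1.08 on another probe, above background on 1 array, and it passed in 6 of 17 alternatives. Stra6l, another receptor for Rbp4, changed by -0.66 and passed in 16 of 17, the exception being normexp with an offset of 50 (-0.07, adjusted p = 0.697). Rbp2, the retinol binder of the intestine, changed by -0.02 and did not pass. The probe of Ttr, the plasma protein that holds Rbp4 in the circulation, was well above background on 0 of 6 arrays, as was that of Rbp3.

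Enzymes that make, store and break down retinoids were called in 9 of 14 tested, 8 of them higher and 1 lower at E14.5 than at E12.5. Adh1, an alcohol dehydrogenase that oxidises retinol, was 29.4-fold higher, a log2 change of 4.88. Lrat, which stores retinol as esters, rose by 2.36, Aldh1a3, which makes retinoic acid, by 0.98 and Dgat1 by 0.96. Cyp26b1 changed by -0.80 ± 0.18 (adjusted p = 0.0144), and this missed the threshold when the first E12.5 array (-0.68, adjusted p = 0.0673) or the second E14.5 array was left out (-0.57, adjusted p = 0.0528).

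Of 9 receptors and corepressors tested, 3 were higher (Rarg by 0.69, Rarb by 0.58 and Rxrb by 0.51), 3 were lower (Nrip1 at -1.05, Rara at -0.67 and Ncor1 at -0.46) and 3 did not pass. Another Rarg probe changed by 0.17, Rarg missed the threshold when its probes were averaged (0.43, adjusted p = 0.0609) or with the second E12.5 array left out (0.61, adjusted p = 0.0544), and Rara with the first (-0.70, adjusted p = 0.0624) or second E12.5 array (-0.63, adjusted p = 0.0805) or the second E14.5 array left out (-0.44, adjusted p = 0.0622). Rxrb and Ncor1 each passed in 15 of 17 alternatives. The probe of Ppard, the receptor that Fabp5 serves, was well above background on 2 of 6 arrays and was not tested. Of 9 genes known to respond to retinoic acid, 6 were higher at E14.5 than at E12.5 and 0 lower. Stra8, which germ cells need to enter meiosis, rose by 2.96 (adjusted p = 0.000472), Rec8, a cohesin subunit of meiosis, by 2.52 and Tgm2 by 1.0. The 4 lists together held 33 tested genes of 43 listed, with Rarb, Cyp26a1 and Dhrs3 each in 2 of them. Of the 33, 16 were higher, 5 were lower and 12 did not pass, with a median change of 0.47. Of all genes tested, 25.6% were called higher and 20.9% lower, with a median of 0.03. For E13.5 minus E12.5 the counts were 10 higher and 4 lower, beside 18.4% and 13.2% of all genes. For E14.5 minus E13.5 they were 0 and 0, beside 0.0446% and 0.00743%.

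**Figure D4:**
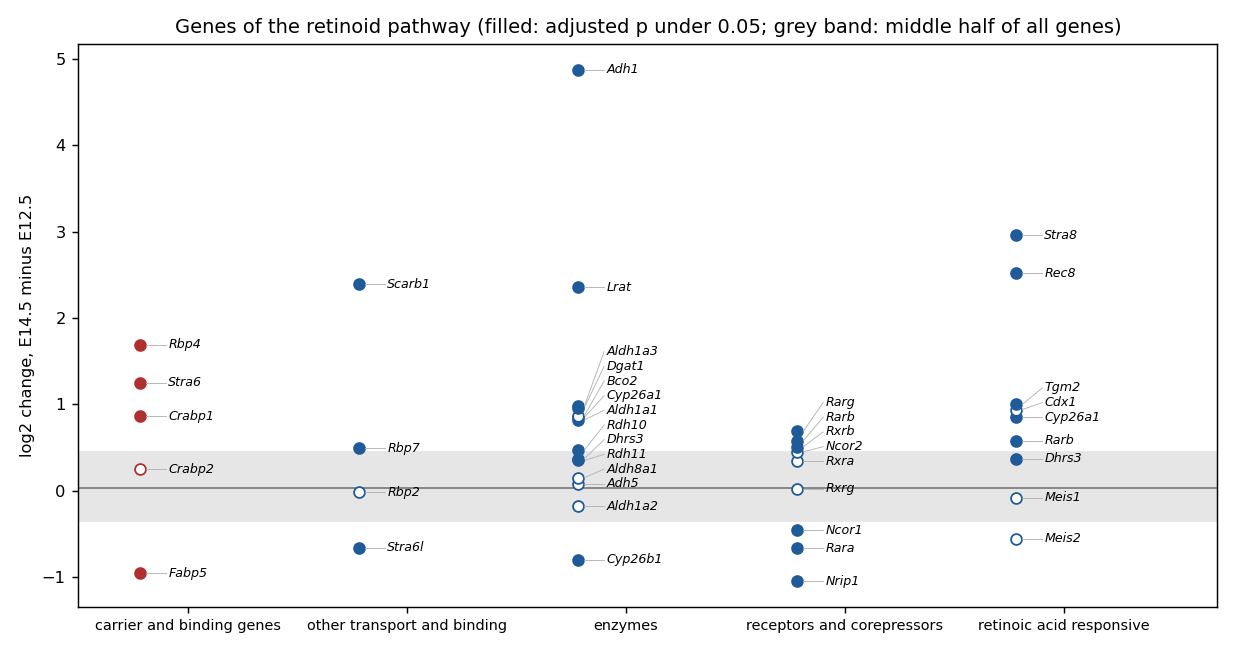
Log2 change of E14.5 minus E12.5 (vertical axis) for the 5 genes in red and the other retinoid genes in blue, by role (horizontal axis). Filled points have an adjusted p under 0.05, the grey line is the median of all genes tested (0.03) and the band spans the middle 50% of them. Adh1, at 4.88, is above every other point, and Fabp5 and Nrip1 are the lowest points.

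Markers of several cell types moved over the same stages. All marker counts are for E14.5 minus E12.5, where 25.6% of all genes tested were called higher and 20.9% lower. All 7 tested markers of fetal Leydig cells, which make androgens, were higher at E14.5 than at E12.5. Of these, Lhcgr was well above background on 4 of 6 arrays and on neither at E12.5. It passed the filter only through the later stages, where it was high, so its direction was fixed beforehand. The summed level of the 7, in multiples of the 75th percentile, was 6.39 to 7.57 at E12.5, 42.6 to 51.8 at E13.5 and 75.1 to 97.7 at E14.5. Peritubular and smooth muscle markers were higher in 5 of 6, with sums of 11 to 14.7, 28.2 to 34.4 and 45.2 to 54.4 at the 3 stages. Macrophage markers were higher in 3 of 6 tested (1.87 to 2.15, 2.33 to 2.73 and 3.77 to 4.37). Neural and neural crest markers were higher in 2 of 5 tested and lower in 1 (0.739 to 0.804, 0.998 to 1.13 and 1.53 to 1.9). The 1 lower was Stmn2, well above background on 4 of 6 arrays and on neither at E14.5. It passed the filter only through the earlier stages. Rbp4, Stra6 and Crabp1 were higher over the same stages, and the part of these cells in those changes was not tested.

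Markers of other cell types were lower, mixed or mostly not past the threshold. Interstitial progenitor markers were higher in 1 of 8 and lower in 0 (46 to 48.6, 41.9 to 46.2 and 46.6 to 47.4). Pregranulosa markers were higher in 1 of 5 tested and lower in 0 (9.3 to 10.2, 11.6 to 12.2 and 9.46 to 13.2). Coelomic surface markers were higher in 1 of 6 and lower in 1 (3.23 to 3.31, 3.78 to 4.17 and 3.37 to 3.4). Erythroid markers were lower in 4 of 7 and higher in 1, with sums of 209 to 257 at E12.5, 180 to 212 at E13.5 and 160 to 182 at E14.5. Endothelial markers were lower in 3 of 7 and higher in 0 (13.5 to 14.5, 10.2 to 10.6 and 10.1 to 10.5). Of these 3, Kdr passed in 17 of 17 alternatives, Esam in 11 and Cldn5 in 10. Mesonephros and duct markers were lower in 3 of 7 and higher in 1 (9.92 to 11.2, 7.93 to 7.94 and 7.38 to 7.78). Most of each sum was Wt1, at log2 levels of 3.13 and 2.90 on the E12.5 arrays and 2.74 on both E14.5 arrays. Wt1 and Emx2, which was 1 of the 3 lower, are not confined to mesonephros and duct. The sums therefore do not measure how much of that tissue was present. Keratinocyte markers, of cells rich in Fabp5, were lower in 1 of 4 tested and higher in 0, at sums of 0.416 to 0.6 on all arrays. Serum protein markers, of liver cells that secrete Rbp4, were higher in 0 of 5 tested and lower in 1, with sums of 1.57 to 4.42, 1.9 to 2.05 and 2.24 to 2.28. The higher E12.5 sum was that of the second array, where Afp stood at 1.21, against -4.73 on the first. The 1 lower was Fgb (limma adjusted p = 0.0499), which passed in 5 of 16 alternatives. Its probe was well above background only on the 2 E12.5 arrays, so it passed the filter only through the stage where it was high. The albumin probe was well above background on 1 of 6 arrays. Germ cell markers were mixed, with 4 of 10 higher and 3 lower (45.2 to 56.2, 78.4 to 81.9 and 63.6 to 78.1). Sertoli cell markers were also mixed, with 3 of 10 higher and 1 lower (117 to 140, 163 to 165 and 167 to 173). Both sums were higher on the E14.5 arrays than on the E12.5 arrays. Cst9 was the largest part of the Sertoli sums, at log2 levels of 5.64 and 6.27 on the E12.5 arrays and 6.8 and 6.79 on the E14.5 arrays. The part of these cells in the changes of Fabp5, or of the genes that rose, was not tested.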

How the data were processed

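The intensity of each spot was read with Agilent Feature Extraction 9.5, which subtracted background and detrended it across the array without scaling arrays to each other, per the file headers. A table deposited by the authors gives a linear ratio for every probe at each stage, relative to something its header does not name, and served only as an alternative. Genome positions come from RefSeq and not from the authors' files.

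The members and lists were chosen with earlier results of these data known. Signals were log2-transformed and each array's 75th percentile was subtracted. Probes were named through RefSeq accessions of either array design file. Of 41174 probes, 21 with no value on some array were dropped, 23456 had 1 symbol, 89 several and 17608 none. The brightest probe stood for a gene, kept if well above background on both arrays of a stage. Limma 3.58.1 in R 4.3.3 (lmFit, eBayes) was fitted to 6 arrays and 13457 genes, two-sided, with Benjamini-Hochberg adjustment over all genes and a threshold of 0.05. In data simulated for 13457 genes, 200 were changed in each comparison, with no slide difference put in. There 2-fold changes were recovered in 63% (E13.5 minus E12.5), 68% (E14.5 minus E13.5) and 56% (E14.5 minus E12.5) of genes. False calls were 8 of 169, 16 of 180 and 12 of 164 in the same order. Recovery depends on how many genes are changed, so these values do not give the recovery in the real comparisons.

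Up to 4 called genes of each other list, apart from the cell type markers, are named by the size of their change. Cyp26b1, Ttr, Lrat, Rarb, Stra8 and Ppard were fixed by name. Cell type markers are given mainly as counts and sums. Other genes were named after their values were seen, and a few genes are not reported here and were left out of the lists. Alternatives were other background corrections, scalings, filters, probe rules, variance priors, a replicate block, the deposited table and leaving out each array. Normexp without offset and plain subtraction were added after seeing the data. The number of arrays limits the precision.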

Additional observations from a re-analysis of the deposited data

How the results depend on the processing

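Of the alternatives tried, 17 were tests for comparisons with E12.5 and 18 for E14.5 minus E13.5. Rbp4 passed in 17 of 17 in both comparisons with E12.5, and Stra6 in 17 of 17 for E14.5 minus E12.5. Stra6 for E13.5 minus E12.5 passed with normexp and offset 50 at 0.64, with normexp without offset at 0.70, with plain subtraction at 0.67, and at 0.65 with only genes above background on all 6 arrays or with a trend and robust prior. Leaving out an array gave 0.37 to 0.93. Fabp5 for E13.5 minus E12.5 turned to 0.03 with normexp and offset 50, was -0.33 without offset and -0.69 (adjusted p = 0.0667) with a trend and robust prior, and ranged from -0.85 to -0.54 without an array. For E14.5 minus E12.5 it was -0.10 with normexp and offset 50, a fixed addition that is larger relative to the later arrays. Crabp2 for E14.5 minus E12.5 passed at 0.46 (normexp, offset 50), 0.39 (no offset) and 0.40 (plain subtraction). For E13.5 minus E12.5 it was -0.01 with median scaling and ranged from -0.05 to 0.20 without an array. Crabp1 for E14.5 minus E12.5 ranged from 0.64 to 1.09. Rbp2 turned to 0.26 with normexp and offset 50, 0.02 without offset, 0.04 with plain subtraction and 0.27 with the mean of all probes, and ranged from -0.08 to 0.05 without an array, and with that mean Rbp7 was -0.30. Where no value is given for a cause, the cause was not tested.

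All genes called for E14.5 minus E13.5, 7 by the processed signal (2473 at an unadjusted p under 0.05), numbered 391 with normexp and offset 50, 0 without offset, 259 with plain subtraction, 89 with median scaling, 347 with a trend and robust prior, 1 with the replicate block or with every probe its own row, 0 with the stricter filter, no filter, the mean of probes or 4 arrays only, and 0 to 45 without an array. For E13.5 minus E12.5 (4253) every probe its own row gave 7777 and leaving out an array 1391 to 3989. For E14.5 minus E12.5 (6248) these gave 11401 and 3958 to 5420. Median scaling moved the median change of all genes for E14.5 minus E12.5 to -0.14, beside 0.03, and the share of calls that were higher to 39.5%, beside 55.1%. For E13.5 minus E12.5 that share was 47.2%, beside 58.1%. Quantile normalization called 5 genes for E14.5 minus E13.5, 60.0% of them higher, beside 85.7%.

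Deviations of arrays with the same number correlated at -0.042 (E12.5 and E13.5), -0.061 (E12.5 and E14.5) and 0.227 (E13.5 and E14.5). Pairing was thus not seen with E12.5 and was weak between the later stages. The replicate block lowered the SE of Rbp4 from 0.19 to 0.15 and of Crabp1 from 0.18 to 0.12, and changed no call of the 5 genes. A slide block could not be fitted for E12.5, whose arrays share no slide with a later stage. In the authors' deposited table the log2 differences for E14.5 minus E12.5 were 1.67 for Rbp4, 1.24 for Stra6, 0.84 for Crabp1, 0.23 for Crabp2 and -0.98 for Fabp5, where the scale's reference stays unknown. Signal over background limits Crabp2 and Fabp5 most.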

Other observations

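The relatives of Fabp5 were called in both directions in the knockout gonads. Of 9 other fatty acid binding protein genes, 5 were tested, and by E14.5 2 were higher and 1 was lower than at E12.5. Of all genes tested, 25.6% were called higher and 20.9% lower. Fabp9, the testis form of the family, stood at -4.42 and -5.09 on the E12.5 arrays, -3.60 and -3.51 on the E13.5 arrays and -2.59 and -2.64 on the E14.5 arrays, a log2 change of 2.14 between E14.5 and E12.5. Fabp3, the heart form, was 0.68 higher, and its call did not hold with the first E12.5 array (0.44, adjusted p = 0.105) or the second E14.5 array left out (0.53, adjusted p = 0.133). Fabp4, the form of fat cells and small vessels, changed by -0.65 by its brightest probe and by -0.70 and -0.66 by its other probes. Its call did not hold with the second array of E12.5 (-0.45, adjusted p = 0.0758) or of E14.5 left out (-0.55, adjusted p = 0.0997).

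Of 5 known targets of PPAR delta, 0 were higher at E14.5 than at E12.5 in limma, 1 was lower (Pdk4 at -0.79) and 4 did not pass. The shares over all genes were 25.6% higher and 20.9% lower. Pdk4, a kinase that turns off pyruvate oxidation, missed the threshold with the first or the second E12.5 array left out (-0.72 and -0.85, adjusted p = 0.0783 and 0.0546) or the second E14.5 array (-0.52, adjusted p = 0.0535). The summed level of the 5 genes was 29.4 to 29.8 at E12.5, 32.2 to 33 at E13.5 and 30.2 to 33.3 at E14.5, in multiples of the 75th percentile.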
